A study of Bos taurus with 60 samples.

Results

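Mammary tissue of dry dairy cows was compared between heat-stressed (HT) and cooled (CL) cows at day (D) 25 after dry-off. Of the 60 RNA-Seq libraries of the study, the 12 collected at D25 were used, 6 from HT and 6 from CL cows, each from a different cow. All cows were multiparous, pregnant Holsteins that were dried off before calving and then assigned to 1 of 2 pens for the whole dry period. HT cows had shade in their pen, whereas CL cows had shade together with fans and soakers. Because each treatment was a single pen, treatment and pen cannot be told apart. The same cows had been biopsied at D-3, before dry-off and thus before the treatments, and at D3, D7 and D14, and those libraries enter the choice of loci tested, the scaling factors and the values set beside those of D25.

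The dry period is the rest between lactations of a dairy cow. Milk secretion ends, secretory epithelium involutes, and in the weeks before calving the gland is rebuilt by proliferation of epithelial cells that then differentiate for the next lactation. D25 was taken as the start of that redevelopment phase. Cells exposed to high temperature raise chaperones of the heat shock families, which keep proteins folded. Cows kept hot during the dry period are known for lower milk yield afterwards, and slower mammary cell turnover has been proposed as a link.

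Total counts at D25 ranged from 20525083 to 23530384 reads per library. Of 25223 loci, the 14714 with at least 1 CPM, a read count scaled to the library total, in at least 6 of the 60 libraries were tested. Levels are given as CPM corrected by TMM factors, which ranged from 1.07 to 1.20 at D25, and fold changes as log2 of HT over CL, so that positive values mean higher in HT. The tissue carried its defining markers in every cow. The luminal keratin KRT19 ranged from 422 to 670 CPM in HT and from 277 to 632 CPM in CL, and smooth muscle actin ACTA2, which marks myoepithelium, ranged from 196 to 548 and from 170 to 481 CPM. Skeletal muscle myosins MYH2 and MYH7 together stayed between 0.317 and 1.88 CPM in every cow. Symbols could be given to only 3007 of the tested loci. These came from incomplete lists of genes that the study tested over time, so that named genes are weighted towards those that vary during the dry period. For the rest, the locus name in the files is used. The biopsies hold several cell types, and in such tissue fewer cells of a type and less RNA per cell cannot be told apart. Some libraries of the earlier days stood apart. At D-3 the milk protein loci summed to between 980107 and 1670834 CPM in 5 libraries (HT cows 8541 and 8713, CL cows 7965, 8564 and 8647) and to between 1709 and 78431 CPM in the other 7, as TMM-scaled CPM that can exceed the library total. At D14, CL cow 7965 had a luminal epithelium sum of 17.4 CPM against 1124 to 3788 CPM in the other 11 libraries and a fibroblast and matrix sum of 15742 against 1359 to 3916 CPM.

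Few loci separated HT from CL at D25. With edgeR's quasi-likelihood F-test, 0 of 14714 loci were DEGs at a false discovery rate (FDR) of at most 0.05 (0% of those tested), and 331 had an unadjusted p under 0.05 (2.25%), of which 158 were higher (1.07%) and 173 lower (1.18%) in HT. The less stringent rule of the study asks for an unadjusted p no higher than 0.005 and a log2 fold change that is 0.5 or more in either direction. It was met by 6 loci (0.0408%), 3 higher (0.0204%) and 3 lower (0.0204%) in HT. With the tagwise dispersions that the methods of the study name, 1 locus was a DEG (0.0068%) and 55 met the less stringent rule (0.374%), and with DESeq2 1 locus was a DEG (0.0068%) and 30 met it (0.204%). The same locus, XLOC_021690, was the DEG in both. The groups did not overlap at 10 loci (0.068%), 6 with every HT cow above every CL cow (0.0408%) and 4 with every HT cow below (0.0272%). Labels drawn at random would part a given locus fully with a probability of 0.00216, and the share seen was below that. The 2.25% with an unadjusted p under 0.05 was likewise below the share of 0.05 that this limit allows for. The median log2 fold change over all loci was -0.002, and 49.6% of loci were above 0. Below, counts of loci with p under 0.05 are from edgeR, and an exact p is from a two-sided permutation test over every choice of 6 of the 12 cows on log2 CPM, whose smallest possible p is 0.00216. Where libraries are left out, the choices run over the cows that remain, and the smallest possible p can be higher. Only XLOC_021690 had an FDR under 0.05 at D25 in any of these 3 tests. At D-3, before the treatments, edgeR gave 0 DEGs among the 14714 loci. There, 297 loci had an unadjusted p under 0.05 and 8 met the less stringent rule. With tagwise dispersions 1 locus was a DEG at D-3 and 44 met that rule. That DEG was not XLOC_021690, which had a tagwise FDR of 0.659 at D-3.

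The number of loci past the less stringent rule depended on single cows. It was 55 without CL cow 8564, 23 without HT cow 8314, 18 without CL cow 8603, 16 without CL cow 8686, 14 without HT cow 8513 and 10 without HT cow 8660 or HT cow 8713. No locus was a DEG in edgeR without any of the 12 cows, and the count at an unadjusted p under 0.05 then ran from 198 to 911.

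XLOC_021690 was the locus with the smallest p. It overlaps no ENSEMBL gene and was assembled from the reads of the study, as were 969 of the loci tested, 37 of which had p under 0.05 (3.82%). The HT cows had 7, 1, 6, 13, 4 and 3 reads there, or 0.287, 0.038, 0.224, 0.479, 0.16 and 0.122 CPM. The CL cows had 192, 30, 131, 90, 50 and 26 reads, or 7.61, 1.22, 5.43, 3.35, 2.03 and 1.02 CPM. Every CL cow was thus above every HT cow, and the locus was close to its detection limit in HT, where cows 8513 and 8713 had no more than 3 reads.

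The means of XLOC_021690 were 0.218 ± 0.153 CPM in HT and 3.44 ± 2.61 CPM in CL (SD, n = 6). The log2 fold change was -3.95 with a standard error (SE) of 0.62, the unadjusted p 1.93e-05 and the FDR 0.284 in edgeR with trended dispersions. The FDR was 1.77e-06 with tagwise dispersions and 5.26e-07 in DESeq2, and the exact p was the smallest possible, 0.00216. The locus stayed past the less stringent rule in 20 of 20 alternative fits, with log2 fold changes from -4.34 to -3.55 and an unadjusted p of at most 9.2e-05 when a cow was left out.

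XLOC_021690 was also lower in HT before the treatments began. At D-3 the HT cows ran from 0 to 0.429 CPM and the CL cows from 0.0964 to 11.4 CPM, with cow 8603 holding 302 reads. At D-3 the log2 fold change was -3.85 (exact p = 0.0152). Without CL cow 7965 it was -4.09 (exact p = 0.00216), and the groups did not overlap (HT 0 to 0.429 CPM, CL 0.596 to 11.4 CPM). It was -2.50 (exact p = 0.0303) without CL cow 8603 and -4.41 (exact p = 0.0286) without the 5 libraries rich in milk protein RNA. Without those libraries, 4 HT cows (0.0409 to 0.429 CPM) and 3 CL cows (0.998 to 11.4 CPM) did not overlap. The exact p of 0.0286 is the smallest possible for groups of that size. The log2 fold change was -1.62 at D3 (exact p = 0.136), -1.14 at D7 (exact p = 0.277) and -0.11 at D14 (exact p = 0.368), or -2.40 (exact p = 0.0693) at D14 without HT cow 8660. HT cow 8660 had 135 reads, or 4.9 CPM, at D14 and 13 reads at D25, whereas CL cow 7965 had 1 read at D-3 and 192 reads at D25. The contrast of D25 with D-3 gave a difference in log2 fold change of -0.09 with an SE of 1.49, and of -0.94 with the cow as a block. The within-cow change in log2 CPM averaged 0.32 in HT and 1.08 in CL (exact p = 0.574).

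**Figure D1:**
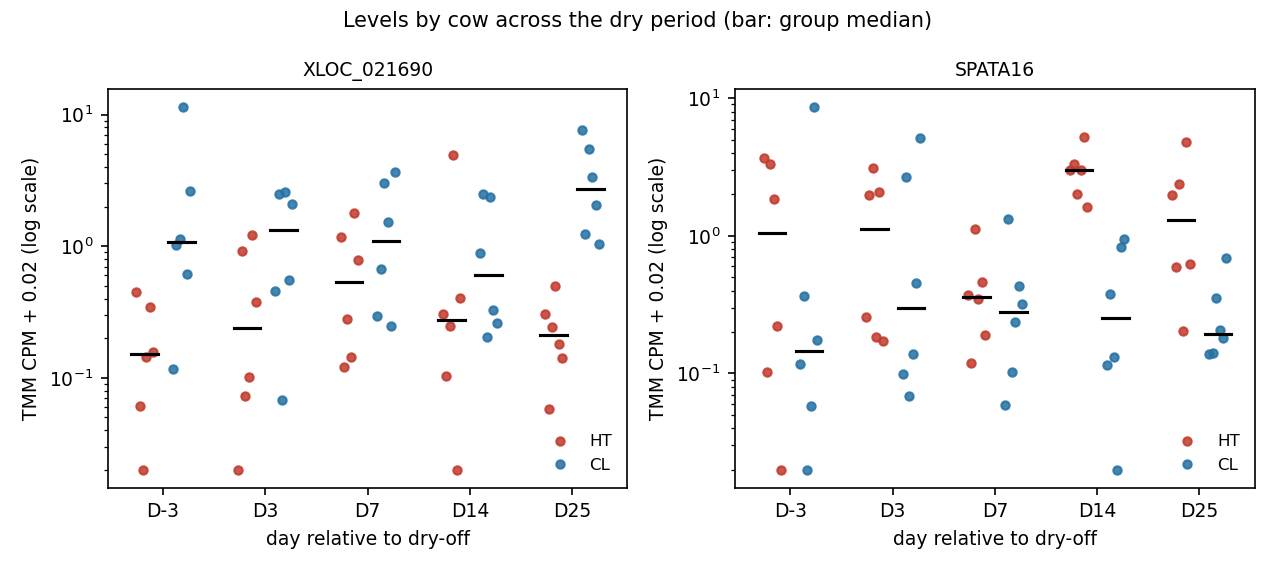
TMM CPM plus 0.02 on a log axis against day relative to dry-off for XLOC_021690 and SPATA16, with a point per cow (red HT, blue CL, 6 each) and a bar at each group median. At XLOC_021690 the HT cows lie below the CL cows at D25 and mostly at D-3, and at SPATA16 the groups part at D14 and less fully at D25.

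A further 2 loci were lower in HT under the less stringent rule, both with an ENSEMBL gene but no symbol in the lists held here. XLOC_009848 (ENSBTAG00000003802) had 4.01, 3.23, 2.39, 3.68, 3.27 and 3.13 CPM in the HT cows. The CL cows had 7.49, 7.82, 5.56, 3.57, 4.06 and 9.58 CPM. The HT cows were tightly grouped at the low end, and CL cow 8603 fell among them. The means of XLOC_009848 were 3.29 ± 0.55 in HT and 6.35 ± 2.35 CPM in CL (SD, n = 6), for a log2 fold change of -0.95 (SE 0.25, FDR = 0.998, exact p = 0.00866). Its log2 fold change had also been negative on the earlier days, at -0.47 at D-3 (exact p = 0.695), -0.56 at D3 (exact p = 0.26), -0.83 at D7 (exact p = 0.00649) and -0.87 at D14 (exact p = 0.0628).

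XLOC_000159 (ENSBTAG00000013292) had 5.77, 5.97, 4.34, 5.52, 6.03 and 3.53 CPM in the HT cows and 10.2, 6.97, 7.13, 6.21, 10.8 and 9.15 CPM in the CL cows. The groups did not overlap, although the highest HT cow and the lowest CL cow were close. HT was lower by a log2 fold change of -0.70 (SE 0.20, FDR = 0.998, exact p = 0.00216). At D7 it was -0.85 (exact p = 0.0281), and at D-3 it was -0.41 (exact p = 0.387).

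A set of 3 loci was higher in HT. XLOC_021704 was the most abundant of the 6 loci. It joins 2 ENSEMBL genes (ENSBTAG00000012768 and ENSBTAG00000014615), whose reads the counts do not separate. The HT cows had 279, 253, 385, 389, 414 and 304 CPM and the CL cows 173, 174, 231, 274, 214 and 158 CPM, and only CL cow 8603 exceeded an HT cow. At XLOC_021704 the log2 fold change came to 0.72 (SE 0.17, FDR = 0.998, exact p = 0.00433). On the earlier days it was 0.60 at D-3 (exact p = 0.199), 0.32 at D3 (exact p = 0.294), 0.22 at D7 (exact p = 0.535) and 0.57 at D14 (exact p = 0.208).

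XLOC_013840 (ENSBTAG00000037907) had 17.6, 15.1, 21.5, 20.1, 19.6 and 15.1 CPM in HT cows and 12.2, 10.6, 12.6, 13, 14.9 and 13.2 CPM in CL cows. The groups did not overlap. Its log2 fold change was 0.51 (SE 0.13, FDR = 0.998, exact p = 0.00216), just inside the 0.5 limit of the rule. It was also 0.51 at D3 (exact p = 0.0238), and it was -0.56 at D14 (exact p = 0.948). The D14 value rested on CL cow 7965, which had 105 CPM against 11.1 to 19.3 in the other CL cows, and it was 0.39 (exact p = 0.115) without that cow.

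SPATA16 (ENSBTAG00000031802), known for its role in forming the acrosome of sperm, was scarce in the gland. HT cows had 48, 15, 63, 5, 120 and 15 reads, or 1.97, 0.57, 2.36, 0.184, 4.79 and 0.609 CPM. CL cows had 3, 3, 8, 5, 4 and 17 reads, or 0.119, 0.122, 0.332, 0.186, 0.162 and 0.668 CPM. In HT, 3 cows were above every CL cow, and the other 3 lay within the CL range. For SPATA16 the log2 fold change came to 2.70 (SE 0.72, FDR = 0.998, exact p = 0.0238).

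The difference in SPATA16 was clearer at D14, where HT cows ran from 1.6 to 5.21 CPM and CL cows from 0 to 0.924 CPM without overlap (log2 fold change 2.95, exact p = 0.00216). At D-3 the log2 fold change of SPATA16 was 0.07 (exact p = 0.498), with single cows of both groups as high as at D25: HT cow 8314 had 3.63 CPM and CL cow 8647 had 8.59 CPM. Without cow 8647 the D-3 log2 fold change was 3.37 (SE 1.16, exact p = 0.134), and without the 5 libraries rich in milk protein RNA it was 2.97 (SE 1.25, exact p = 0.314). It was -0.14 at D3 (exact p = 0.697) and 0.11 at D7 (exact p = 0.66).

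**Figure D2:**
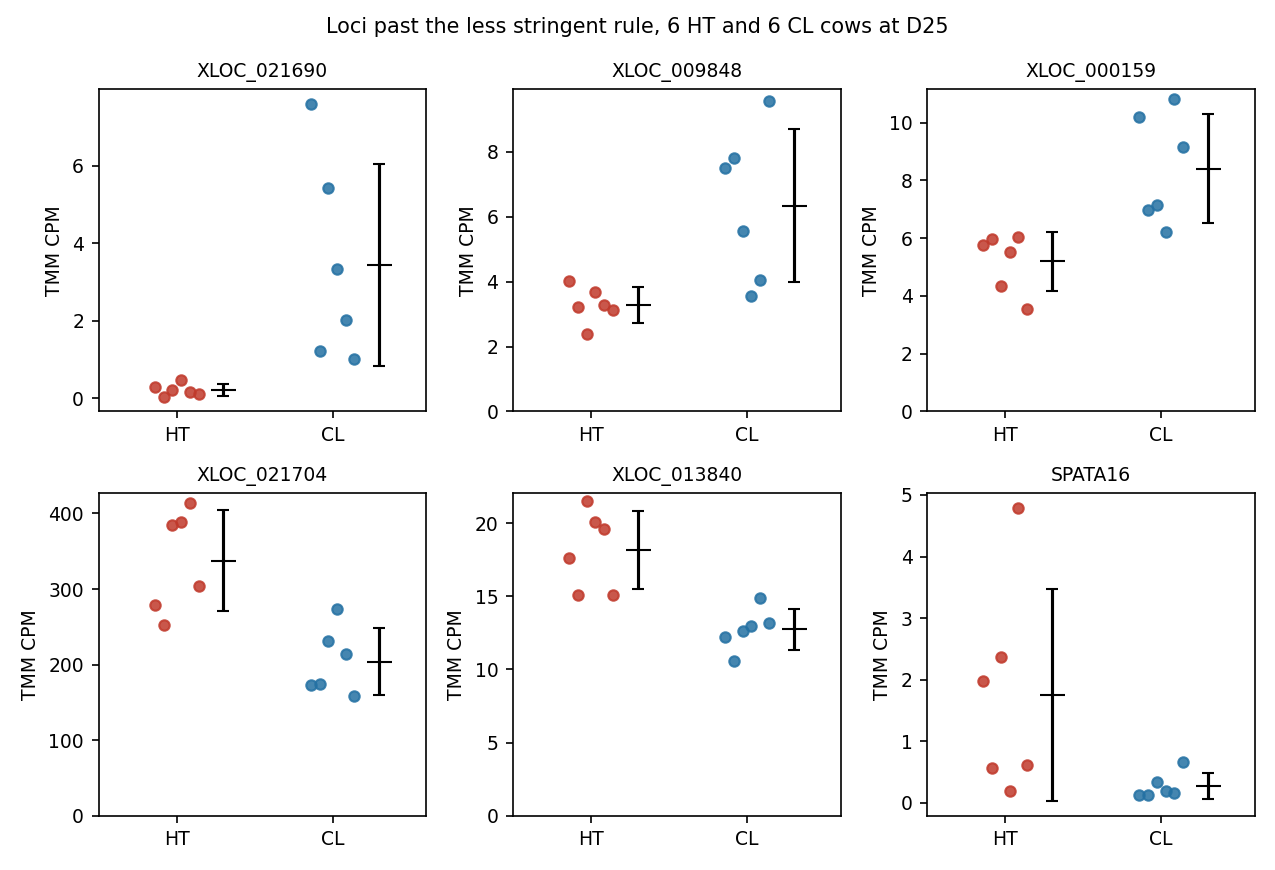
TMM CPM at D25 of the 6 loci past the less stringent rule, with a point per cow (red HT, blue CL) and the mean ± SD of 6 cows beside each group. The upper 3 loci are lower in HT and the lower 3 are higher, and the groups do not overlap at XLOC_021690, XLOC_000159 and XLOC_013840.

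Nor was a departure of the D25 difference from the D-3 difference detected for the other 5 of these 6 loci. The contrast of D25 with D-3 gave 2.61 for SPATA16 (SE 1.48), or 1.10 when the cow was a block, and the within-cow change gave an exact p = 0.545. For the remaining 4 the contrast lay between -0.48 and 0.33, with exact p = 0.281 or higher for the within-cow change. Without the 5 D-3 libraries rich in milk protein RNA the contrast was -0.28 for SPATA16, 0.46 for XLOC_021690 and between -0.40 and 0.06 for the other 4. Over all loci this contrast gave 0 DEGs in edgeR (0%), 93 loci with an unadjusted p under 0.05 (0.632%) and 1 past the less stringent rule (0.0068%). With the cow as a block it gave 0 DEGs, 193 loci with p under 0.05 (1.31%) and 5 past the less stringent rule (0.034%). The 1 locus without the block was XLOC_006203, which ranged from 0.114 to 1.34 CPM in HT and from 0.0393 to 0.373 CPM in CL at D25. The number without the block depended on single cows and was 6 without CL cow 8060, 4 without cows 8541, 8660 or 8686, 3 without cows 8603 or 8713, 2 without cow 7965 and 0 without cow 8314. With the block, XLOC_013841 was 1 of the 5, with a difference of 4.43 between the days and an exact p = 0.0216 for the within-cow change. At D25 it ranged from 5.37 to 24.2 CPM in HT and from 0.0812 to 5.7 CPM in CL (exact p = 0.00433). The lowest value was that of CL cow 8647, and the other CL cows had 1.45 to 5.7 CPM. XLOC_013841 was chosen by this contrast in the same libraries, so neither exact p adds evidence.

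Genes of mitosis and DNA replication were higher in HT cows on average at D25, by amounts that single cows could move. Of the 40 listed genes 27 could be paired with a symbol and tested, and all 27 had a log2 fold change above 0, from 0.31 to 0.78 with a median of 0.47. None was a DEG or met the less stringent rule, and 5 had an unadjusted p under 0.05, all higher in HT, where 1.07% of all loci tested were so. Loci with a symbol were on the whole shifted the same way, with a median of 0.026 and 55.7% above 0, and 60 of 3007 had p under 0.05 and were higher (2%) against 15 lower (0.499%). Genes of this kind vary together within a cow, so that the 27 are not separate observations.

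The 5 were FOXM1, NDC80, CCNB1, PBK and TTK. CCNB1 is the cyclin that brings cells into mitosis. It measured 16.5, 30.6, 11.3, 12.4, 17.7 and 12.1 CPM in HT cows and 10.4, 11.5, 6.55, 10.7, 10.2 and 16.8 CPM in CL cows. HT cow 8513 was the highest and CL cow 8564 the lowest, and the groups overlapped. CCNB1 had a log2 fold change of 0.61 (SE 0.27, exact p = 0.0541).

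FOXM1, the transcription factor that drives genes of mitosis, ranged from 3.94 to 10.7 CPM in HT and from 2.44 to 5.02 CPM in CL, with a log2 fold change of 0.67 (SE 0.27, exact p = 0.0476). TTK, a kinase of the spindle checkpoint, had 0.78 (SE 0.35, exact p = 0.0758). PBK, a mitotic kinase, had 0.70 (exact p = 0.0649), and NDC80, which anchors microtubules at the kinetochore, had 0.57 (exact p = 0.0519). The proliferation antigen MKI67 averaged 92.1 CPM in HT and 66.3 in CL with a log2 fold change of 0.47 (SE 0.24). For TOP2A, which untangles replicated DNA, the value was 0.49 (SE 0.31), and for CDK1, the kinase partner of cyclin B, 0.31 (SE 0.25).

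Summed over the mitosis and DNA replication list, the 27 loci made up 684, 1032, 412, 455, 674 and 469 CPM in the HT cows and 433, 364, 275, 444, 505 and 658 CPM in the CL cows. HT cows 8314, 8513 and 8668 were above every CL cow, and the other HT cows lay inside the CL range. Leaving out any 1 cow kept all 27 above 0, but the median was 0.24 without HT cow 8513 and 0.60 without CL cow 8686. The number with p under 0.05 ran from 0 without cows 8314, 8513 or 8564 to 16 without cow 8686, and was also moved by over 1.5 times to 1 without cows 7965, 8060 or 8668, to 2 without cow 8603, to 8 without cow 8660 and to 11 without cow 8541.

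**Figure D3:**
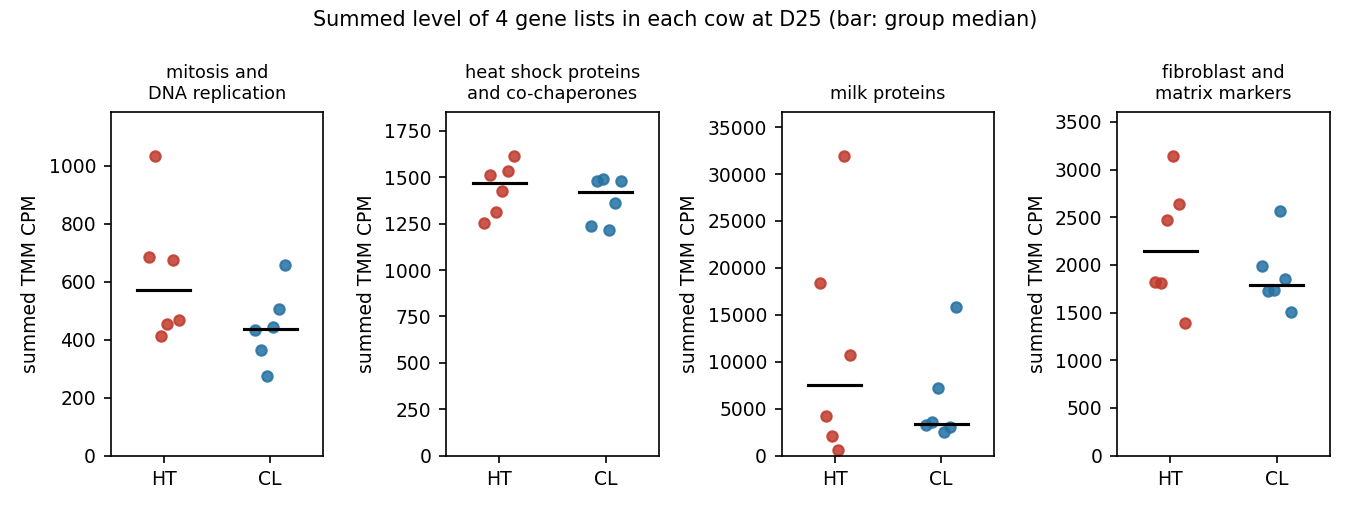
Summed TMM CPM of 4 gene lists at D25, with a point per cow (red HT, blue CL, 6 each) and a bar at the group median. The groups overlap in each list. For mitosis and DNA replication the medians are 571 in HT and 439 in CL, and for the heat shock list 1468 and 1421.

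On the other days the direction of the mitosis and DNA replication list varied, and no test of that variation was made. Its median log2 fold change was 0.13 at D-3, where 20 loci were above 0 and 7 below. It was -0.19 at D3, with 3 above 0, -0.39 at D7, with 1 above 0, and 0.20 at D14, with 25 above 0. Leaving out 1 cow moved it between -0.17 (without cow 8660) and 1.01 (without cow 8603) at D-3, between -0.34 (without cow 8513) and 0.01 (without cow 8686) at D3, between -0.62 (without cow 8314) and -0.20 (without cow 8513) at D7 and between 0.08 (without cow 8603) and 0.37 (without CL cow 7965) at D14. The summed level in HT cows had a median of 556 CPM at D7 and 744 at D14, against 675 and 570 in CL cows. The contrast of D25 with D-3 gave a median of 0.28 over the 27 loci, with 20 positive and 7 negative, of which 0 had p under 0.05.

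**Figure D4:**
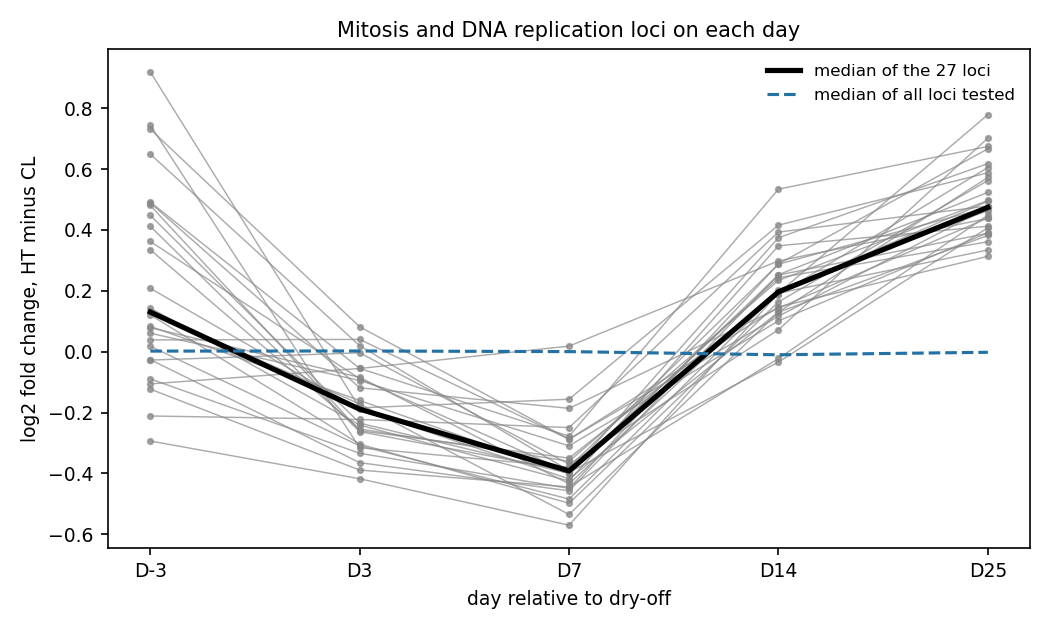
Log2 fold change of HT over CL against day relative to dry-off for the 27 mitosis and DNA replication loci (grey lines), with their median (black) and the median of all 14714 loci tested (blue, dashed). The median lies below 0 at D3 and D7, and is 0.20 at D14 and 0.47 at D25.

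Heat shock proteins and co-chaperones showed no common direction. Of 43 listed genes 12 could be tested, with 7 above and 5 below 0, a median of 0.047 and 0 with p under 0.05. The small heat shock protein HSPB1 ranged from 198 to 293 CPM in HT and from 140 to 315 CPM in CL, with a log2 fold change of 0.22 (SE 0.18, exact p = 0.208). The mitochondrial chaperonin HSPD1 had 0.15 (SE 0.15, exact p = 0.331), and the HSP70 co-chaperone DNAJA1 0.01 (SE 0.15). HSPA9, the mitochondrial HSP70, shares a locus with ETF1 and had -0.02 (SE 0.12). HSF2, a heat shock transcription factor, had -0.05 (SE 0.13). The summed list ran from 1254 to 1612 CPM in HT and from 1213 to 1489 CPM in CL. The inducible HSPA1A, HSPH1 and HSP90AA1 and the factor HSF1 had no symbol in the lists held here and were not analysed.

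DNAJC12, a co-chaperone of the J-domain family, had the highest log2 fold change of that list. HT cows had 34.8, 12.6, 19.6, 14.3, 60.4 and 38.5 CPM and CL cows 17, 10.6, 29.9, 10.8, 22.1 and 7.11 CPM. The groups overlapped over much of their range, with HT cow 8668 the highest. DNAJC12 had a log2 fold change of 0.89 (SE 0.42, exact p = 0.121). It was 1.84 at D7 (exact p = 0.0303) and -0.09 at D-3 (exact p = 0.812).

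In the unfolded protein response list 5 of 22 genes could be tested, with 3 above and 2 below 0 and a median of 0.040. ATF4, the transcription factor at the centre of the integrated stress response, had -0.11 (SE 0.10, exact p = 0.11), and DDIT3, its target that encodes CHOP, had 0.04 (exact p = 0.751). In the oxidative stress list 5 of 21 could be tested and all 5 were above 0, with a median of 0.116 and 0 with p under 0.05. Thioredoxin, TXN, had 0.39 (SE 0.20, exact p = 0.128). Heme oxygenase 1, HMOX1, had 0.57 (exact p = 0.543) with 1 HT cow at 294 CPM and the HT median at 97.3. The median of the oxidative stress list was 0.03 without CL cow 7965 and 0.46 without CL cow 8564, and that of the unfolded protein response list was -0.08 without CL cow 8647.

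Milk protein genes differed more among cows than between treatments. CSN1S1, which encodes alpha-S1-casein, had 7328, 1431, 1047, 342, 15291 and 2678 CPM in HT cows and 869, 1603, 1544, 1074, 1638 and 6167 CPM in CL cows. Both the highest and the lowest cow were HT. CSN1S1 had a log2 fold change of 1.12 (SE 0.78, exact p = 0.634). Of 13 listed genes 6 could be tested, with 4 above and 2 below 0, a median of 0.74 and 0 with p under 0.05. The median of the list was 0.17 without HT cow 8668, 0.38 without HT cow 8314 and 1.07 without CL cow 8686, where 2 had p under 0.05. The list had a median of 2.34 at D7 and -0.09 at D-3.

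Fatty acid and triglyceride synthesis genes were evenly divided, with 10 above and 10 below 0 among 20 tested of 35 and a median of 0.006. A pair of them, 2 of 20, had p under 0.05 and were higher in HT, against 1.07% of all loci tested and 2% of those with a symbol. INSIG1, which holds sterol-regulated transcription factors in the endoplasmic reticulum, ranged from 29.1 to 43.1 CPM in HT and from 19.3 to 31.8 CPM in CL (log2 fold change 0.43, SE 0.15, exact p = 0.0152). FABP3, a carrier of fatty acids that is abundant in the lactating gland, had 0.99 (SE 0.44, exact p = 0.128), with HT cows between 7.4 and 58.1 CPM. The fatty acid synthase FASN had -0.25 (SE 0.45), acetyl-CoA carboxylase ACACA -0.10 (SE 0.21) and the lipid droplet coat gene PLIN2 -0.76 (SE 0.50). At D7 the list had a median of 0.84.

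Signals that direct growth of the gland gave no common direction either. In the hormone and growth factor list 12 of 30 could be tested, with 6 above and 6 below 0, a median of 0.022 and 0 with p under 0.05. IGFBP2, which binds insulin-like growth factors, had 0.54 (SE 0.26, exact p = 0.0996). The insulin receptor INSR had -0.25 (exact p = 0.167), and STAT5B, which relays prolactin and growth hormone signals, -0.39 (exact p = 0.318). IGF1 had 0.23 (SE 0.28) and its receptor IGF1R -0.09 (SE 0.15). Among ductal branching genes 11 of 50 could be tested, with 8 above and 3 below 0 and a median of 0.17, which was -0.02 without HT cow 8541. PTHLH, a peptide that epithelium sends to mesenchyme during duct formation, had 0.78 (SE 0.45, exact p = 0.16) at a level of at most 3.47 CPM, and the collagen receptor DDR1 had 0.22 (exact p = 0.145).

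Cell death and barrier genes lay close to 0. The apoptosis list had 5 above and 6 below 0 among 11 tested of 37, all between -0.15 and 0.11. In the autophagy list 12 of 33 were tested, with 3 above and 9 below 0 and a median of -0.025, and EPG5, which helps autophagosomes fuse with lysosomes, had the smallest p (log2 fold change -0.19, SE 0.10, exact p = 0.0433). The tight junction list had 4 above and 4 below 0 among 8 tested of 23, between -0.21 and 0.16, with occludin, OCLN, at -0.21 (exact p = 0.34). None of these 31 loci had p under 0.05. Leaving out 1 cow turned the sign of the median in each of these 3 lists, within -0.09 and 0.09, and also in the hormone and growth factor list, within -0.01 and 0.10, and the fatty acid list, within -0.05 and 0.13.

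Mucosal and innate defence genes had 8 above and 3 below 0 among 11 tested of 45, with a median of 0.11. GP2, a secreted glycoprotein that binds bacteria, had 38.5, 36.8, 17.3, 21.4, 47.4 and 11.4 CPM in HT cows and 24.9, 5.05, 13.3, 9.04, 17.6 and 15.4 CPM in CL cows. Higher values were mostly HT, but the lowest HT cow lay below 4 of the CL cows. GP2 had a log2 fold change of 1.02 (SE 0.39, exact p = 0.0541), with p under 0.05 in edgeR. Of all loci 1.07% were so and higher in HT, and of those with a symbol 2%. LBP, the lipopolysaccharide binding protein, had 0.85 at D25 (exact p = 0.0996) and 2.00 at D-3 (exact p = 0.039). Complement C3 had 0.11 (SE 0.55), and the median of the list was 0.49 without CL cow 8564 and -0.01 without CL cow 7965.

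Markers of the cell types that a biopsy can hold are given beside these groups, and their part in the results above was not tested. All 7 fibroblast and matrix markers tested of 23 were above 0, with a median of 0.35 and 0 with p under 0.05, and their summed level ran from 1394 to 3139 CPM in HT and from 1505 to 2571 CPM in CL. Their median was 0.14 without HT cow 8660. The luminal epithelium markers, 7 tested of 20, had 4 above and 3 below 0, a median of 0.011 and 0 with p under 0.05. Their sum ran from 1349 to 2136 CPM in HT and from 1134 to 1770 CPM in CL. GATA3, a transcription factor of luminal cells, had -0.24 (SE 0.12, exact p = 0.0455, unadjusted p = 0.0652 in edgeR). The myoepithelium markers, 7 tested of 11, had a median of 0.12, which was -0.02 without CL cow 8647 and 0.23 without HT cow 8668, and summed to between 1025 and 2385 CPM in HT and between 907 and 1821 CPM in CL.

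Adipocyte markers ADIPOQ and FABP4, 2 of 13, had log2 fold changes of 0.27 (exact p = 0.251) and 0.53 (exact p = 0.331), and their sum ran from 44.8 to 223 CPM in HT and from 16.3 to 199 CPM in CL. Among endothelium markers 4 of 18 could be tested, with 1 above and 3 below 0 and a median of -0.10. ROBO4, a guidance receptor of vessels, had 0.51 (SE 0.22, exact p = 0.0368), whereas KDR and FLT1, receptors for vascular endothelial growth factor, had -0.03 (SE 0.16) and -0.24 (SE 0.19), and the endothelial sialomucin EMCN had -0.17 (SE 0.12). The T cell kinase ZAP70, the only T cell marker of 31 that could be tested, ranged from 51.3 to 110 CPM in HT and from 68.1 to 139 CPM in CL (log2 fold change -0.39, SE 0.21, exact p = 0.11). The B and plasma cell marker DERL3 (1 of 19) had 0.12 (exact p = 0.526), and the macrophage markers MSR1 and AIF1 (2 of 22) had 0.08 (exact p = 0.972) and 0.04 (exact p = 0.985). The skeletal muscle markers, 2 tested of 23, had 0.58 and 1.94 at levels of at most 1.12 CPM. No gene of the neutrophil, MHC class II, skin keratinocyte and erythrocyte lists had a symbol, and these were not analysed.

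**Figure D5:**
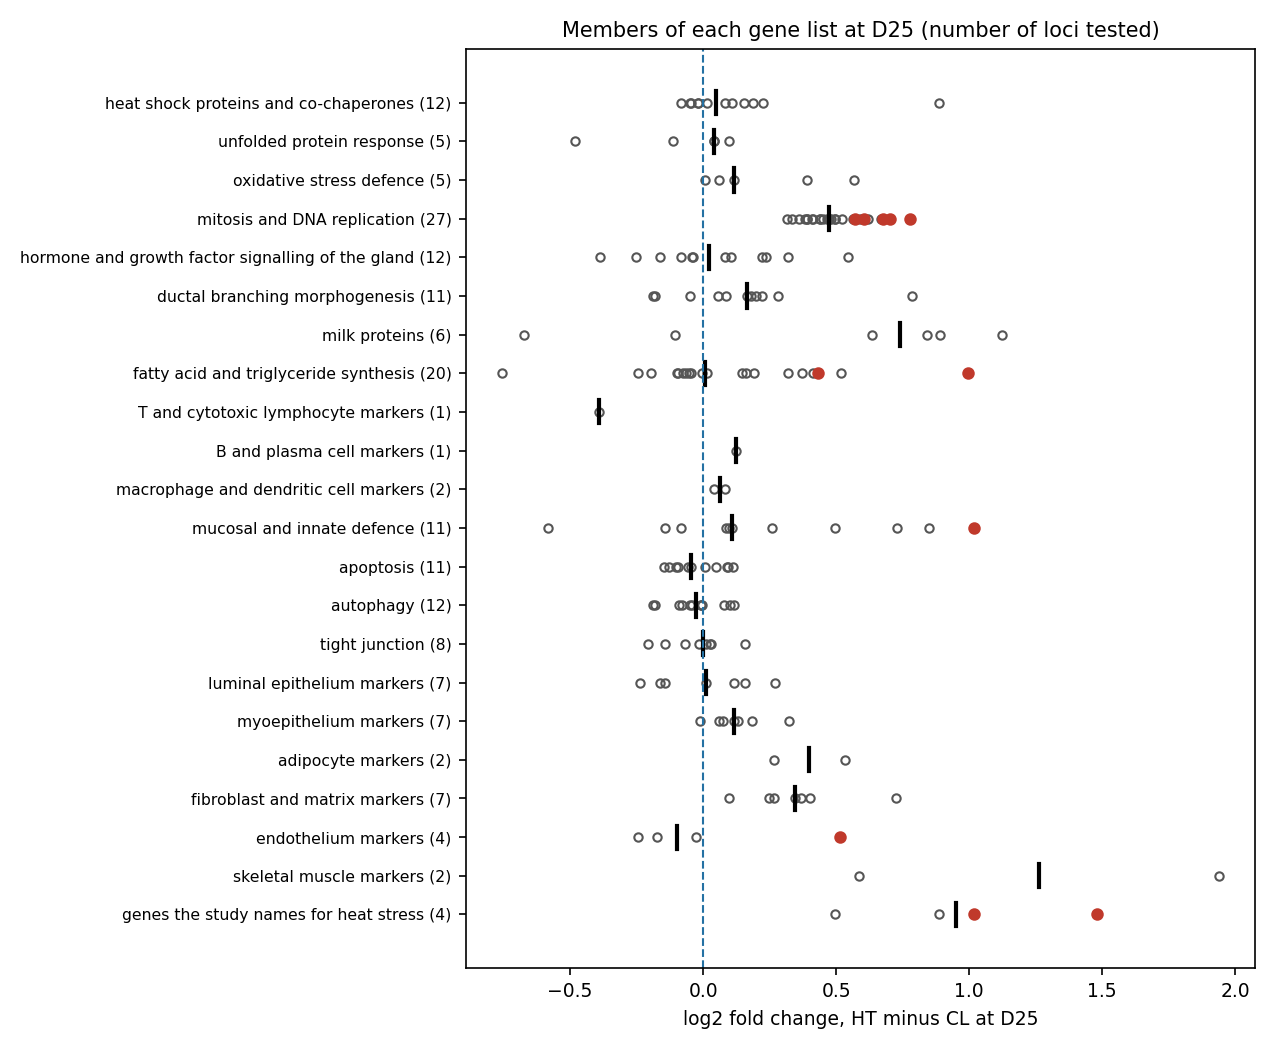
Log2 fold change of HT over CL at D25 for each locus of 22 gene lists (circles, filled red where the unadjusted p is under 0.05), with the list median (black bar) and the median of all loci tested (blue dashed line at -0.002). The 27 mitosis and DNA replication loci all lie to the right of 0.31, whereas the heat shock, apoptosis and tight junction lists straddle 0.

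Of the 22 genes that the study names for heat stress, 4 could be tested, and all 4 were above 0 with a median of 0.95. That list was chosen by the study on these samples and is not independent evidence of its direction. LOC786474 had 6.55, 8.36, 7.55, 5.63, 23.2 and 24.6 CPM in HT cows and 2.34, 2.53, 12.3, 4.28, 3.9 and 1.85 CPM in CL cows. Only CL cow 8564 exceeded an HT cow, and HT cows 8668 and 8713 were well above the rest. LOC786474 had a log2 fold change of 1.48 (SE 0.52, exact p = 0.026), and it was 3.17 at D7 (exact p = 0.0346) and 0.11 at D-3 (exact p = 0.766). This locus joins 2 ENSEMBL genes. FCAMR, a receptor for immunoglobulins A and M, had 0.50 at D25 (exact p = 0.853) and 2.86 at D7 (exact p = 0.0606). GP2 and DNAJC12, given above, complete the 4.

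Genes with a symbol and the smallest p outside the lists were chosen after their values were seen, as was CENPW, a centromere protein and the only locus with a symbol among the 10 without overlap. CENPW had 1.88, 4.71, 2.17, 2.47, 2.92 and 2.84 CPM in HT cows and 1.63, 1.71, 1.78, 1.86, 1.67 and 1.73 CPM in CL cows. The CL cows were almost level and the HT cows all above them, by little in cow 8314. CENPW came to a log2 fold change of 0.71 (SE 0.23). Its exact p of 0.00216 follows from the lack of overlap by which it was chosen and adds no evidence. TRIM9, a ubiquitin ligase best known from neurons, had 4.26, 11.1, 4.04, 4.42, 9.39 and 3.17 CPM in HT cows and 29.1, 32.3, 2.94, 15.9, 19.8 and 8.36 CPM in CL cows. HT cows were all low, and CL cows were spread widely, with cow 8564 the lowest of all 12. TRIM9 had a log2 fold change of -1.58 (SE 0.50, exact p = 0.0584). RASSF5, a Ras effector, had -0.36 (SE 0.12, exact p = 0.00866), with HT cows from 39.6 to 47.4 CPM and CL cows from 43.3 to 71 CPM. SRSF5, a splicing factor, had -0.38 (exact p = 0.0455), and SPOCK1, a matrix proteoglycan, had -0.87 (exact p = 0.0736). LAMA3, a laminin chain of the epithelial basement membrane, had 0.44 (SE 0.14, exact p = 0.0303). SYT17, of the synaptotagmin family, had 0.59 (SE 0.18, exact p = 0.00649). All of these had p under 0.05 in edgeR, and none was a DEG. Genes other than CENPW were chosen by that p, so their exact p-values, from the same 12 libraries, add no evidence either. Of the 3007 loci with a symbol, 60 had p under 0.05 and were higher in HT (2%), and 15 were lower (0.499%).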

How the data were processed

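Mammary biopsies were trimmed of visible fat, and poly(A) RNA libraries were sequenced single-ended on an Illumina NextSeq 500. Per the submitters' processing notes and the methods of the study, the authors trimmed reads with Trim Galore 0.4.1, mapped them with TopHat2 2.0.13, assembled transcripts with Cufflinks 2.2.1, joined these to ENSEMBL genes, and used HTSeq for counting. The methods name the bosTau7 build and the processing notes another, so no coordinates are given. The authors deposited raw counts of reads per locus. A locus joining several genes is listed once for each with the same count, and 742 of 25223 loci are such. Whether counting used strand is not given in the sources used here, so reads of overlapping antisense genes cannot be told apart.

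Each locus entered once. TMM factors were computed over 60 libraries, and the 12 libraries of D25 were fitted with edgeR 4.0.16 (R 4.3.3) by the quasi-likelihood F-test with trended dispersions. FDR is Benjamini-Hochberg over 14714 loci. Counts of loci with p under 0.05 use the unadjusted p of this fit. The SE is the log2 fold change divided by the square root of F. D25 was contrasted with D-3 in a fit of 60 libraries. Exact permutation tests were two-sided, used log2 CPM computed with prior count 2, and ran over every choice of 6 of 12 cows. Where libraries were left out, they ran over the cows that remained. The fits were run on simulated counts, drawn independently at the trended dispersions. Such counts hold no spread particular to a locus or a cow, so they cannot judge the tagwise or blocked fits. Python 3.11.15 with pandas 2.3.3 and scipy 1.17.1 was used.

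The members and gene lists were chosen with earlier results of these data known. Named were loci past the less stringent rule (up to 14 each way), genes the study names for heat stress, and from each list up to 4 members with the smallest p and, for markers, the 3 most abundant. List members named beyond that rule were chosen after their values were seen. Symbols came from supplementary lists held only in part, and no sequences were available to print. The cow pairs D-3 with D25 through the labels. The correlation of deviations from the group means was between -0.241 and 0.55 within a cow, with a median of 0.19, and over 0.1 in 8 of 12. HT cows 8513 and 8660 at D25 each resembled the other cow's D-3 sample (0.576 and 0.365) more than their own (-0.241 and 0.107). This leaves HT against CL at D25 as it is. Within-cow changes and blocked fits depend on the labels, which were used as given except where an exchange is stated. P-values of HT against CL within a day and exact p-values rest on the spread between cows. Fits of all 60 libraries without the block take the repeated libraries of a cow as separate. With the cow as a block, p-values rest on the spread within cows. Alternatives were RLE factors, library size only, factors and filter within D25, looser and stricter filters, DESeq2 1.42.0, tagwise dispersions, the newer edgeR method, all libraries in the fit, the cow as a block and each cow left out, also on the earlier days, and D-3 without libraries whose milk protein loci summed to 100000 CPM or more (the last 2 chosen after seeing the data).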

Additional observations from a re-analysis of the deposited data

Results flagged for a closer look

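In 308 groups of 6 cows (154 loci in HT and CL at D25), 13 held a cow whose gap to the next cow on the log2 scale exceeded Dixon's critical share of the group's range. Chance flags about 1 group in 20. Those cows stood apart as follows, in CPM, with the range of the other 5 cows.

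Among HT cows, 8314 was highest for STAT5B at 191 (others 91.8 to 117) and for FRMPD3 at 8.07 (others 0.294 to 1.04). Cow 8513 was highest for SPRY2 at 42.8 (others 30.0 to 33.2) and for FEN1, which processes Okazaki fragments, at 29.0 (others 12.4 to 15.5). Cow 8660 was lowest for BDH1, an enzyme of ketone body metabolism, at 1.47 (others 3.33 to 5.2).

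Among CL cows, 8564 was highest for GPRC5C at 30.2 (others 12.8 to 17.5) and RAB13 at 37.2 (others 30.5 to 31.6), and lowest for BARD1, the partner of BRCA1, at 1.82 (others 3.02 to 3.74). Cow 8647 was lowest for XLOC_013841 at 0.0812 (others 1.45 to 5.7), for smooth muscle myosin MYH11 at 201 (others 338 to 460) and for GABARAPL1 at 98.8 (others 131 to 153). Cow 8603 was highest for fibronectin FN1 at 1186 (others 565 to 700), and cow 8686 for CSN1S1 at 6167 (others 869 to 1638).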

How the results depend on the processing

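The number of DEGs at D25 was 0 in edgeR under the other scalings, filters, sample sets and without any cow (0 to 0), and 1 with tagwise dispersions and with DESeq2. The number past the less stringent rule was 24 over every locus with at least 1 count, 55 with tagwise dispersions, 30 with DESeq2 and 3 with all 60 libraries in the fit, against 6, and 5 to 55 with a cow left out. For the contrast of D25 with D-3 the DEGs were 0 throughout. Loci past the less stringent rule numbered 1, and 0 in the 24 libraries alone, 3 with tagwise dispersions, 4 without the 5 D-3 libraries rich in milk protein RNA (both added after seeing the data) and 0 to 6 with a cow left out. With the cow as a replicate block they numbered 5, and 6 with cows 8513 and 8660 exchanged at D14 and D25. With the block the DEGs stayed at 0, and loci with p under 0.05 numbered 193 against 93 without it. None of the 6 loci reversed. XLOC_021690 stayed past the rule in 20 of 20 fits, XLOC_021704 in 20 of 21, XLOC_009848 in 15 of 21, XLOC_013840 and XLOC_000159 in 14 of 21, and SPATA16 in 13 of 19, and the cause of the losses was not tested. FRMPD3 and the number of autophagy loci above 0 moved beyond the spread in 1 alternative each. With 6 cows in each pen, counts of a few reads, as in HT at XLOC_021690, fix a fold change only loosely.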
